A study of Homo sapiens with 12 samples.

Results

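The sites described here are RNF2 peaks without an island of H2AK119ub, mapped in the human embryonic stem cell line H1. RNF2 catalyses histone ubiquitination within Polycomb repressive complex 1 (PRC1), and its product on histone H2A is H2AK119ub. Members were selected on peak width and on overlap: RNF2 peaks narrower than 10 kb that no H2AK119ub island overlapped by 1 bp or more. This left 4362 of 29310 RNF2 peaks (14.9%). They are called unmarked below, and the 24237 RNF2 peaks under 10 kb with an island are called marked. All 711 RNF2 domains of 10 kb or more overlapped an island, so the width limit removed none.

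The lists came from chromatin immunoprecipitation and sequencing of untreated wild-type H1 cells with antibodies to RNF2, H2AK119ub and YTHDF1, an RNA-binding reader of N6-methyladenosine, beside input libraries. YTHDF1 was also mapped in H1 cells that had received an shRNA against YTHDF1, with their own input. Each of the 6 groups had 2 replicates, and the authors had merged them into 1 list of peaks per antibody, so no spread between replicates can be given. Library depth was unknown, so a site that lacks the mark cannot be told apart from one whose island was not called. Peak lists hold no expression values, so the cell type was not checked against marker genes. Intervals on shares are exact binomial 95% intervals and cover counting error only. Overlapping intervals do not show that shares are equal. In the tests below peaks are the units and are not replicates. These tests treat peaks as independent, but peaks clustered along the genome, as given below. Their p-values and intervals therefore understate the uncertainty.

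PRC1 exists in several forms built around RNF2 or its paralogue RING1. Canonical forms hold a CBX protein that reads the methyl mark left by Polycomb repressive complex 2, and they gather at developmental genes in broad domains. Variant forms hold RYBP or YAF2 and reach DNA by other subunits, among them KDM2B at CpG islands and the MGA, MAX, E2F6 and PCGF6 proteins at germline genes, and they lay down much of H2AK119ub in embryonic stem cells. Deubiquitinases such as BAP1 and USP16 remove the ubiquitin.

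Promoter sequences came from RefSeq (GRCh38.p14, the assembly of the hg38 coordinates in the files). Windows of 300 bases, from 250 before to 50 after a start, were searched on both strands for fixed motifs. The stretches shown are 100 bases long, lie between 1 and 245 bases upstream of a start whose window an unmarked RNF2 peak overlapped, and touch no annotated gene. They are shown because ETS forms were in a larger share of windows at unmarked than at marked starts, as given below. Capitals mark matches to the ETS forms CCGGAAGT and CACTTCCG (which can overlap), the E2F form TTCCCGC or the E-box CACGTG, on either strand, and each line runs 5′ to 3′ on the strand of its gene. WDR17 (chr4:176065726-176065825, plus strand), EEF1B2 (chr2:206159509-206159608, plus), CDK11A (chr1:1724455-1724554, minus, a gene with a near copy) and THG1L (chr5:157731320-157731419, plus) had the strongest unmarked peaks among starts with such a stretch. MRPL51 (chr12:6493333-6493432, minus), COX6A1 (chr12:120438013-120438112, plus) and MRPS22 (chr3:139343864-139343963, plus) had the strongest among the ribosomal, respiratory, proteasome and splicing genes. TADA1 (chr1:166876410-166876509, minus) had the strongest with an E-box.
WDR17: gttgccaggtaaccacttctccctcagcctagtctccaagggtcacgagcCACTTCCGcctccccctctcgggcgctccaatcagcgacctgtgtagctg
EEF1B2: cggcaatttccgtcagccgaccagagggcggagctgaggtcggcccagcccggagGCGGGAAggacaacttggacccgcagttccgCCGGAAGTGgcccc
CDK11A: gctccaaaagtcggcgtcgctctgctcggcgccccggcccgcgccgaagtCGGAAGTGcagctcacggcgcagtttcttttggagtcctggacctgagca
THG1L: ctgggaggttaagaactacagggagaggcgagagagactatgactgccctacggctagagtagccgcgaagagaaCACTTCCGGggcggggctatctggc
MRPL51: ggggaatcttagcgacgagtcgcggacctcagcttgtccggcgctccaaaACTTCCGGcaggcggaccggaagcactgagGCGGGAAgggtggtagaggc
COX6A1: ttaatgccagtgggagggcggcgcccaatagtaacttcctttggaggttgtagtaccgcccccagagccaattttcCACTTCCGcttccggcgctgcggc
MRPS22: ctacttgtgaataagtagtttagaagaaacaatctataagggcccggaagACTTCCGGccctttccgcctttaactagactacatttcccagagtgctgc
TADA1: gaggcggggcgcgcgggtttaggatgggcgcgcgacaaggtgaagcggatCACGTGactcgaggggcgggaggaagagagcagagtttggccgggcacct

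Unmarked peaks were small and weak beside the other RNF2 peaks. Their width and strength come from the list that chose them and are given as a description. The median width was 639 bp, with 5% of peaks below 310 bp and 5% above 2002 bp, against 1472 bp for marked peaks. The median RNF2 fold enrichment, the authors' value for each peak over its background, was 3.08 against 3.93. Of the unmarked peaks, 90.5% lay below 4-fold and 49.8% had a −log10 q under 5, close to the lowest value of the RNF2 list, 4.01. Among marked peaks 17.9% had a −log10 q under 5. The share of RNF2 peaks under 10 kb without the mark was 30.3% (29.1 to 31.6%) below 3-fold, 21.1% from 3-fold to 4-fold, 6.11% from 4-fold to 5-fold and 0.680% (0.372 to 1.14%) from 8-fold up. By width it was 44.2% below 500 bp and 1.17% from 4 kb up. A set of 414 unmarked peaks reached 4-fold.

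**Figure D1:**
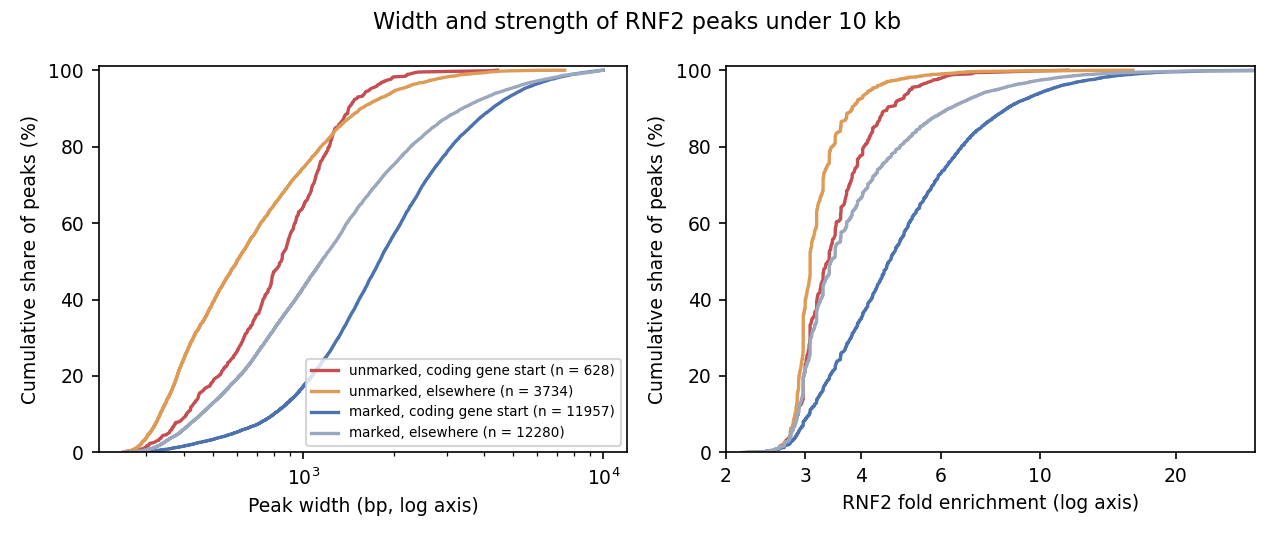
Cumulative share of RNF2 peaks under 10 kb (vertical axes, %) by peak width in bp (left) and by RNF2 fold enrichment (right), both on log axes, for unmarked and marked peaks at coding gene starts and elsewhere. The curves of unmarked peaks lie to the left of the curves of marked peaks from the same kind of position, with medians of 844.5 against 1794 bp at starts and 600.5 against 1149 bp elsewhere. The right axis ends before the highest marked peaks, which reach 93.5-fold.

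Peaks just inside and just outside the overlap rule are given as examples. The unmarked peaks nearest to an island lay 2, 3 and 6 bases from it, in AHRR (chromosome 5, 414244 to 414598, 3.18-fold), in PTPN4 (chromosome 2, 119761804 to 119762572, 3.92-fold) and in PROX1-AS1 (chromosome 1, 213972596 to 213974994, 2.95-fold). The marked peaks with the smallest overlaps shared 1, 2 and 2 bases with an island. They lay in PGBD2 (3.09-fold), beside LPCAT3 (3.52-fold) and 63.3 kb from GTF3A (3.19-fold). The median unmarked peak lay 11.5 kb from the nearest island. Less than 1 kb separated 531 peaks (12.2%) from an island, 1532 (35.1%) lay less than 5 kb away, and 995 (22.8%) lay 50 kb or more away. The widest unmarked peak, 7429 bp inside the developmental gene GREB1L (chromosome 18, 21257743 to 21265171), was 4.15-fold and 11.7 kb from an island. The next widest were 5999 and 5741 bp near the transcription factor genes TFAP2B and TFAP2D on chromosome 6, 5875 bp on chromosome X and 5332 bp in EMX2OS, the antisense transcript of the homeobox gene EMX2.

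Position separated unmarked from marked peaks. A start was the first base of a transcript for the 15843 coding genes whose start the reference gives. For the other 4194 coding genes both ends were used, since their strand was not known. The midpoint lay within 2 kb of such a point for 628 of 4362 unmarked peaks (14.4%, 13.4 to 15.5%) and for 11957 of 24237 marked peaks (49.3%, 48.7 to 50%), beside 44% of all RNF2 peaks under 10 kb. The odds ratio was 0.173 (Woolf 95% interval 0.158 to 0.189), and the two-sided Fisher exact p was too small for the computer's number format. Within deciles of peak width the odds ratio was 0.319 (0.291 to 0.35), and within deciles of fold enrichment 0.309 (0.282 to 0.339). Away from starts, 1466 unmarked peaks (33.6%) lay inside coding genes, 679 (15.6%) in genes of other kinds and 1589 (36.4%) between genes, against 21.5%, 8.40% and 20.8% of marked peaks. More than 10 kb from any gene lay 864 unmarked peaks (19.8%, 18.6 to 21.0%) and 8.03% of marked peaks (7.69 to 8.38%).

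The unmarked peaks at starts differed in form from those elsewhere. At starts the median was 844.5 bp and 3.38-fold, against 600.5 bp and 3.08-fold elsewhere. Peaks at starts lay a median of 38.7 kb from the nearest island and 42.5% of them (38.6 to 46.5%) lay 50 kb or more away. Elsewhere the median was 8.95 kb and the share 19.5% (18.2 to 20.8%). For the 538 peaks near a known start, the summit lay a median of 120 bp from it, and 491 summits (91.3%) lay within 500 bp. The windows of 2 or more coding genes held 102 of the 628 peaks (16.2%, 13.4 to 19.4%), against 12.6% of marked peaks at starts (12 to 13.2%).

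Peaks away from starts crowded around the broad RNF2 domains. Broad domains come from the list that chose the members, so these numbers are a description. Within 100 kb of an RNF2 domain of 10 kb or more lay 1467 of 3734 unmarked peaks away from starts (39.3%, 37.7 to 40.9%) and 24.6% of marked peaks away from starts (23.9 to 25.4%), beside 18.6% of all RNF2 peaks under 10 kb. The corresponding shares at starts were 5.57% (3.91 to 7.67%) and 6.51% (6.07 to 6.96%), and 9.13% of all coding genes lay that close. Per Mb of sequence, unmarked peaks away from starts numbered 30.4 within 25 kb of a domain, 9.16 from 25 to 50 kb, 3.04 from 100 to 250 kb and 0.546 beyond 1000 kb. Marked peaks away from starts numbered 55.2 and 2.33 per Mb in the nearest and farthest class. Unmarked peaks at starts numbered between 0.178 and 0.357 per Mb in every class. The unmarked share of RNF2 peaks away from starts was 35.6% within 25 kb and 15.2% from 500 to 1000 kb, and 19% beyond.

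**Figure D2:**
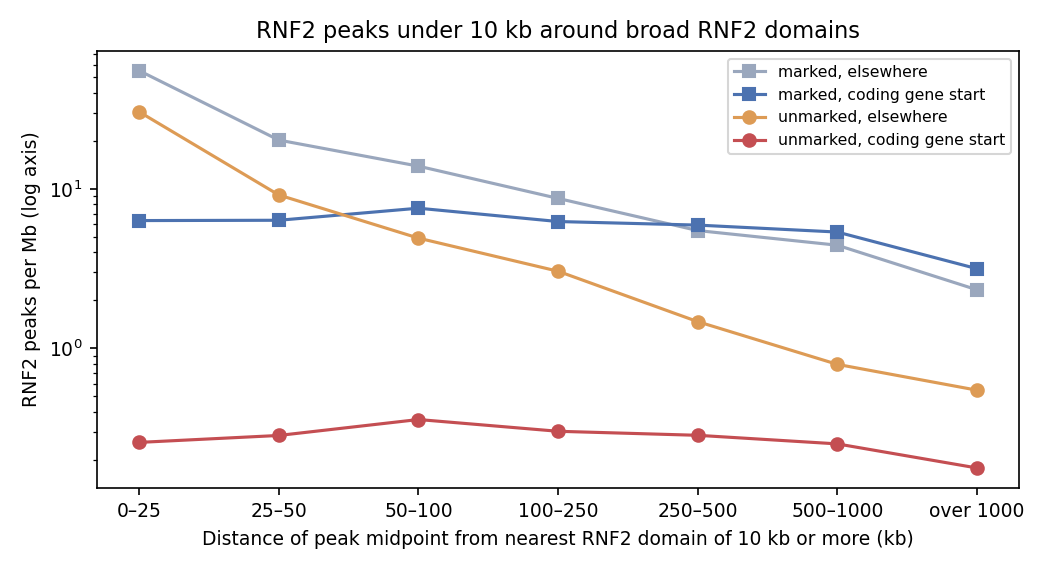
RNF2 peaks under 10 kb per Mb of sequence (vertical log axis) by distance of the peak midpoint from the nearest RNF2 domain of 10 kb or more (horizontal axis, kb). The line of unmarked peaks away from starts drops from 30.4 to 0.546 per Mb, while that of unmarked peaks at coding gene starts stays between 0.178 and 0.357. The farthest class includes sequence without any peak, such as centromeres.

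The windows of 1 Mb with most unmarked peaks are named here, picked for their counts, so these are a description. Over the whole genome 4362 of 28599 RNF2 peaks under 10 kb were unmarked. The window with the HOXB body-axis genes (chromosome 17, 48 to 49 Mb) held 45 unmarked among 103 RNF2 peaks under 10 kb and 5 broad domains. None of the 45 lay at a coding gene start or on a YTHDF1 peak, and they ranged from 2.46-fold to 4.18-fold. The window of NKX2-1, NKX2-8 and PAX9, homeobox and paired-box factors of foregut and other organs (chromosome 14, 36 to 37 Mb), held 37 unmarked among 46 such peaks. In the window of NR2F1, a nuclear receptor (chromosome 5, 93 to 94 Mb), 27 of 31 peaks were unmarked, at a median of 3.21-fold and 11.8 kb from an island. The windows of PAX3 (27 of 46), NKX2-2 and NKX2-4 (25 of 50), MEIS1 (23 of 29), CDX2 and GSX1 (23 of 48) and the HOXA genes (23 of 31) followed. Others among the fullest windows were those with broad domains at LIMCH1 (30 of 43), at BMI1, itself a PRC1 subunit gene (27 of 39), and at FOXD1 (23 of 53). The next fullest, on chromosome 9 from 41 to 42 Mb (22 of 32), held no broad domain. Windows with 10 or more unmarked peaks numbered 76 and held 1211 unmarked peaks (27.8%).

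Strength is taken here as the −log10 p of the peak. The 5 strongest unmarked peaks more than 10 kb from any gene lay on chromosomes 4, 6 and 7. The strongest was 7.35-fold over 2631 bp (chromosome 4, 80217599 to 80220229), 14.6 kb from PRDM8 and 2.2 kb from an island. A pair of peaks of 6.07-fold (chromosome 6, 100228771 to 100229634) and 5.32-fold (100281120 to 100282071) lay 155.8 and 103.4 kb from SIM1, a bHLH-PAS transcription factor of the hypothalamus, and 210.6 and 158.1 kb from the nearest island. A 5.72-fold peak on chromosome 7 (19194290 to 19195603) lay 49.5 kb from the bHLH gene FERD3L, and a 6.25-fold peak on chromosome 4 (104924745 to 104927560) lay 211.1 kb from a coding gene. Inside coding genes and away from starts, the strongest were 7.18-fold in C10orf67, 6.38-fold in ARHGAP15 (a Rac GTPase-activating protein, 405.2 kb from an island), 6.16-fold in SCAPER, 5.56-fold in PRDM6 and 5.47-fold in WDR41.

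Several of the strongest unmarked peaks of all lay around the chromosome 9 centromere, a stretch known for duplicated sequence. The strongest, 16.1-fold over 639 bp (chromosome 9, 41266475 to 41267113), lay in no annotated gene. The second, 14.9-fold (62834226 to 62835383), lay in a long non-coding RNA gene. Between 38 and 70 Mb of chromosome 9, 88 of 157 RNF2 peaks under 10 kb were unmarked (56.1%), 6 of the 10 strongest members lay there, and 16 of the 53 members of 6-fold or more. A further 3 of the 10 lay on chromosome 2, in LINC01945 (12.4-fold), in the pseudogene PGM5P4, within the window of the coding gene LOC124908046 (11.5-fold), and beside FOXD4L1 (10-fold), and the remaining one was that of DPY30. FOXD4L1, and FOXD4L3 on chromosome 9 (8.15-fold, 68304220 to 68304549), are forkhead genes with near copies elsewhere. How reads with several matches were placed is not given in the sources used here, so values at such copies are uncertain. Without this stretch of chromosome 9, 4274 members were left, at a median of 3.08-fold.

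At coding gene starts the strongest unmarked peak lay at DPY30, a core subunit of the H3K4 methyltransferase complexes. It was 8.92-fold over 2415 bp (chromosome 2, 32038109 to 32040523), covered the higher-coordinate end of the gene (32011649 to 32039835) and lay 21.5 kb from an island. After it came LOC124908046, FOXD4L1 and FOXD4L3, whose values are given above and whose summits lay 1815, 933 and 1505 bp from a start. They were followed by ATF2, a bZIP transcription factor (7.01-fold, chromosome 2, 175167362 to 175169130), WDR17 (7.10-fold, chromosome 4, 176065213 to 176066292) and DPY19L2, which is needed for sperm head formation and has near copies (7.09-fold, chromosome 12, 63668034 to 63668592). PSMD14, the deubiquitinating subunit of the proteasome lid, had a 5.76-fold peak of 1366 bp whose summit lay 156 bp from the start, with no island within 60.1 kb. GCA (grancalcin) had 6.30-fold, KIFAP3 (a kinesin-associated protein) 6.14-fold, NBPF15 (a member of a repeated gene family) 6.46-fold and FAM185A 6.14-fold. A 6.23-fold peak lay between the head-to-head genes MCEE, a methylmalonyl-CoA epimerase, and MPHOSPH10, of ribosome assembly. A 6.06-fold peak lay in the window of the lower-coordinate end of MPZL2, a cell adhesion gene, with its summit 1392 bp away. Whether that end is the start of MPZL2 was not known. The peaks of these 15 strongest genes lay between 0.639 and 128.6 kb from the nearest island, the closest being that of FOXD4L1 and the farthest that of FAM185A.

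Genes of known function were then counted by list. Unmarked peaks lay at the starts of 717 of 20037 coding genes (3.58%, 3.33 to 3.84%), and 658 of these genes had no marked peak at a start. Marked peaks under 10 kb lay at 11883 genes (59.3%). Of 33 proteasome subunit genes, 10 had an unmarked peak (30.3%, 15.6 to 48.7%), from 2.63-fold to 5.76-fold. After PSMD14 the strongest were PSMA1, of the core ring, at 4.39-fold (chromosome 11, 14519953 to 14521069, 98.2 kb from an island), PSMB7 at 3.11-fold and PSMC6, an ATPase of the base, at 3.24-fold. Marked peaks lay at 16 of these 33 genes.

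Genes of mitochondrial energy production and translation came next in the share with an unmarked peak. Of 74 respiratory chain subunit genes, 14 had one (18.9%, 10.7 to 29.7%) and 46 a marked peak. NDUFS1, of complex I, shared a 5.49-fold peak with the neighbouring translation elongation gene EEF1B2 (chromosome 2, 206158784 to 206161059), the start of which is shown above. NDUFB9, UQCRB and ATP5PF had 4.04-fold, 4.07-fold and 4.13-fold. Of 77 mitochondrial ribosomal protein genes, 12 had an unmarked peak (15.6%, 8.32 to 25.6%) and 44 a marked one. MRPL54 and MRPS30 had 4.26-fold and 4.24-fold, MRPL51 2.93-fold and MRPS33 3.6-fold. MRPL54 lay 0.994 kb from an island and MRPS30 416.9 kb. Of 76 cytosolic ribosomal protein genes, 8 had one (10.5%, 4.66 to 19.7%), the strongest at RPS26 (3.6-fold), RPL5 (3.58-fold), RPL34 (2.97-fold) and RPS4X (3.50-fold). Of 49 splicing factor genes, 5 had one (10.2%, 3.40 to 22.2%), with 4.39-fold at SNRPD1 and 3.83-fold at SNRPC, which encode a protein of the snRNP core and one of the U1 particle, 3.6-fold at CDC5L and 3.39-fold at SNRPE. The share among all coding genes was 3.58%. The intervals of the lists treat genes as independent and were not adjusted for the 11 lists, so they are a description. Counting only coding genes with any RNF2 peak at a start, 5.61% had an unmarked one. On that base the shares were 38.5% for proteasome, 23.3% for respiratory, 21.4% for mitochondrial ribosomal, 15.1% for cytosolic ribosomal and 12.5% for splicing genes. Genes of a list can share a peak with a neighbour outside it or in another list, as MRPL32 and PSMA2 did. No set test was made, and the shares were not matched on RNF2 peak width or fold enrichment.

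The other lists held at most 3 genes with an unmarked peak each. Of 60 germline and meiosis genes, among which the MGA and E2F6 form of PRC1 is known to act, 3 had one (5%, 1.04 to 13.9%) and 30 a marked peak. These were TAF7L, a germ-cell form of a general transcription factor subunit (4.34-fold, 209.5 kb from an island), MEI4, needed for meiotic DNA breaks (3.50-fold), and SMC1A, a cohesin subunit that somatic cells also use (3.18-fold). Of 45 DNA replication genes 3 had one (6.67%, 1.40 to 18.3%): MCM3, of the replicative helicase, at 5.03-fold, and ORC2 and ORC3, of the origin recognition complex, at 4.44-fold and 3.6-fold. Of 47 developmental transcription factor genes 2 had one (4.26%, 0.520 to 14.5%), among them WT1 (3.0-fold), a factor of kidney and gonad development. At 20 of the 47 the midpoint of a broad domain lay within 2 kb of a start. Genes inside a broad domain whose midpoint lay farther away were not counted, so these counts understate broad domains. Unmarked peaks were at 0 of 15 subunit genes of the MGA, E2F6 and PCGF6 form of PRC1 (interval up to 21.8%), 0 of 24 other PRC1 subunit genes (up to 14.2%) and 0 of 28 pluripotency-associated genes (up to 12.3%). Midpoints of marked peaks or broad domains lay within 2 kb of a start at 15, 15 and 19 of these genes.

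**Figure D3:**
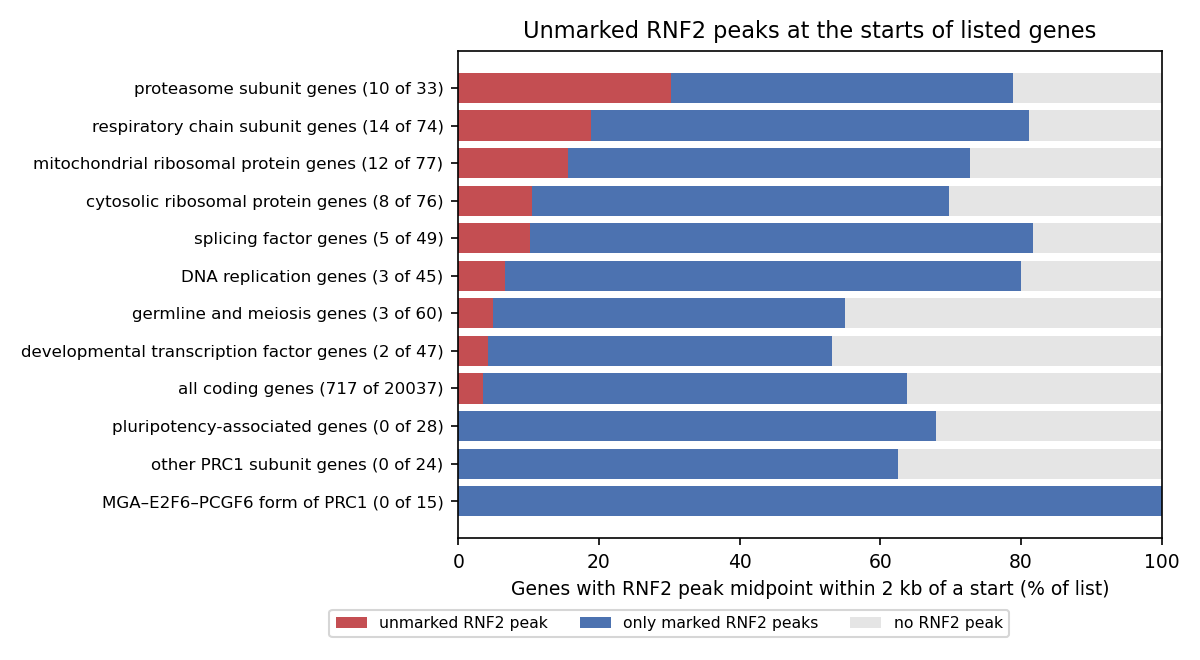
Share of the genes of each list (horizontal axis, %) with an unmarked RNF2 peak, with only marked RNF2 peaks or domains, or with no RNF2 peak midpoint within 2 kb of a start; genes with an unmarked peak and the list size are in brackets, and genes with both kinds count as unmarked. Proteasome subunit genes are highest at 30.3% and all coding genes stand at 3.58%.

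Promoter sequence at unmarked starts differed from that at marked starts in motif and CpG content. Windows were sorted by the RNF2 peak that overlapped them, a broad domain or marked peak taking precedence, which gave 666 windows of 566 genes under unmarked peaks and 12349 under marked ones. Several windows can belong to 1 gene, and motif shares are a description with no test. Motif and CpG values were not matched on RNF2 peak width or fold enrichment, in which unmarked and marked peaks at starts differ. The ETS form CCGGAAGT was in 104 of the 666 unmarked windows (15.6%, 12.9 to 18.6%), 6.66% of marked windows (6.22 to 7.11%), 1.35% of windows in broad domains and 5.34% of all coding gene windows. The overlapping form CACTTCCG was in 13.2% (10.7 to 16.0%), 6.41% and 2.1%, beside 5.17% of all. Either form was in 132 unmarked windows (19.8%, 16.9 to 23.1%) and 8.83% of marked ones (8.34 to 9.35%), beside 7.21% of all. ETS factors such as GABPA are activators that bind this core at many housekeeping promoters. The capitals in the stretches of THG1L and EEF1B2 show both forms overlapping.

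For the E-box, E2F, NRF1 and YY1 forms the intervals of unmarked and marked windows overlapped. The E-box CACGTG, bound by dimers of MAX, was in 8.86% of unmarked windows (6.81 to 11.3%) and 10.3% of marked ones (9.72 to 10.8%), beside 8.34% of all. The E2F form TTCCCGC was in 10.5% (8.29 to 13.1%) and 11.3% (10.7 to 11.8%), beside 8.13% of all, and the second form GGCGGGAA in 4.20% and 5.64%, beside 3.98% of all. The longer E-box TCACGTGA was in 2.85% (1.73 to 4.42%) and 1.72% (1.5 to 2.0%), beside 1.27% of all. The NRF1 form CGCATGCG was in 5.11% (3.56 to 7.06%) and 3.47% (3.15 to 3.8%), beside 2.49% of all, and its longer form in 2.70% and 2.15%, beside 1.5% of all. The YY1 motif was in 2.85% (1.73 to 4.42%) and 1.61% (1.40 to 1.85%), beside 1.18% of all. The SP form GGGCGG was less frequent at unmarked starts, in 63.1% (59.3 to 66.7%) and 75.8% (75 to 76.6%), beside 56.3% of all.

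CpG content of unmarked windows lay between that of marked windows and of windows without RNF2. The median window of 300 bases held 22 CG dinucleotides under unmarked peaks, 28 under marked peaks, 23 in broad domains and 5 without an RNF2 peak. Median GC content was 59.7%, 67.7%, 65.3% and 52%. Among windows with 16 to 27 of them, the middle range of unmarked windows, an ETS form was in 25.7% of unmarked (21.3 to 30.4%) and 11.3% of marked windows (10.3 to 12.3%).

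**Figure D4:**
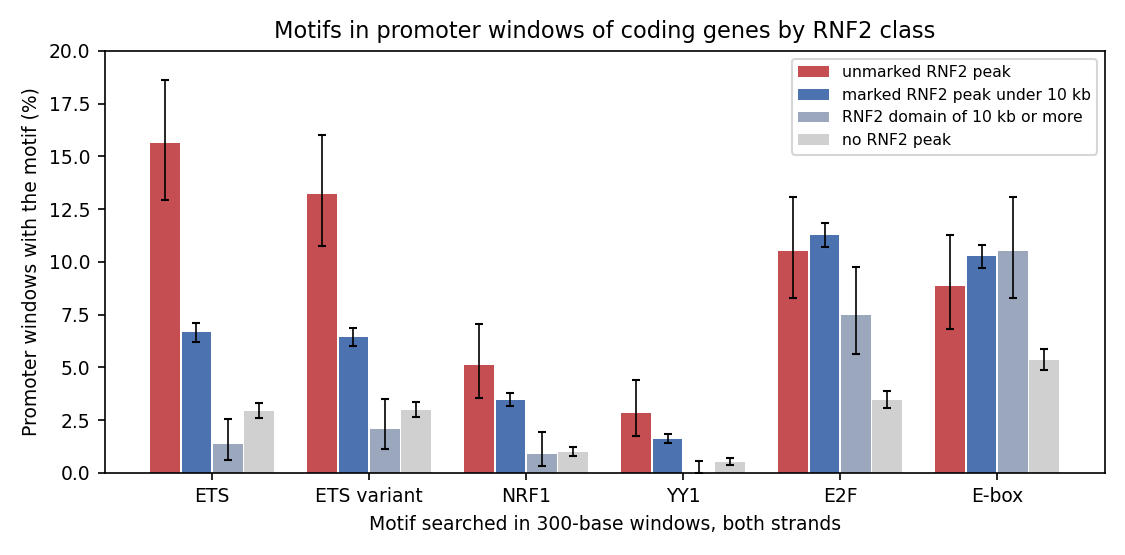
Share of coding gene promoter windows of 300 bases that hold each motif on either strand (vertical axis, %), by the RNF2 class of the window, with exact 95% binomial intervals as bars. ETS stands at 15.6% of unmarked and 6.66% of marked windows, and E2F at 10.5% and 11.3%.

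YTHDF1 was rare on unmarked peaks. It overlapped 181 of 4362 unmarked peaks (4.15%, 3.58 to 4.78%) and 4537 of 24237 marked peaks (18.7%, 18.2 to 19.2%), beside 16.5% of all RNF2 peaks under 10 kb. The odds ratio was 0.188 (0.161 to 0.219, two-sided Fisher exact test, adjusted p = 1.03e-161, Benjamini-Hochberg over 4 tests). At coding gene starts it was on 78 of 628 unmarked peaks (12.4%) and 26.2% of marked peaks (odds ratio 0.399, 0.314 to 0.508, adjusted exact p = 1.55e-16). Elsewhere it was on 103 of 3734 (2.76%) and 11.4% (odds ratio 0.220, 0.180 to 0.270, adjusted exact p = 2.9e-70). Width and strength differ between the classes, as shown above. Over combined strata of width deciles, fold enrichment deciles and start position, the Mantel-Haenszel odds ratio was 0.482 (0.410 to 0.568). By width, YTHDF1 was on 2.72% of unmarked and 4.11% of marked peaks of 250 to 500 bp, whose intervals overlapped, and on 5.54% and 19.2% of those of 1 to 2 kb.

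**Figure D5:**
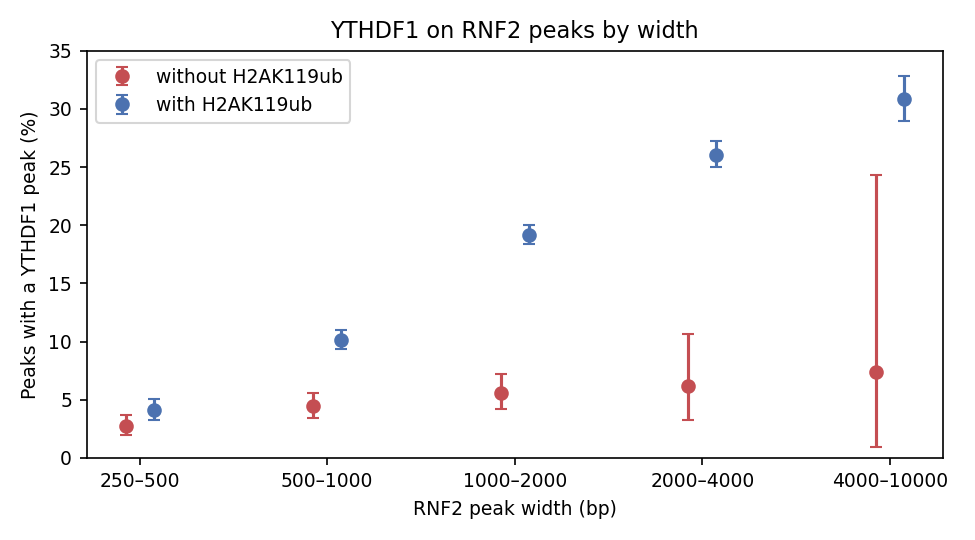
Share of RNF2 peaks under 10 kb with a wild-type YTHDF1 peak (vertical axis, %) by RNF2 peak width in bp, for peaks without and with H2AK119ub; bars are exact 95% binomial intervals. Marked peaks rise from 4.11% to 30.9%, and unmarked peaks from 2.72% to 7.41%, the last from 27 peaks.

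The YTHDF1 peaks on unmarked sites had a median fold enrichment of 2.91, against 2.95 on marked peaks. A −log10 q of at least 4 was reached by 12 of the 181, and by 412 of 4537 on marked peaks. It was under 2 for 98 of the 181 and for 2005 of the 4537, with medians of 1.87 and 2.18. The strongest, by q, lay on the DPY30 peak, at 4.66-fold with a −log10 q of 9.48. The next was 3.47-fold, on a 2.78-fold RNF2 peak of 303 bp (chromosome 17, 25383655 to 25383957) that lay 1858.8 kb from any island and 1910.3 kb from a coding gene. Whether reads map uniquely there was not examined, so its values are uncertain. The zinc-finger genes ZNF548 and ZNF493 on chromosome 19 had YTHDF1 peaks of 4.35-fold and 4.21-fold over RNF2 peaks of 2.72-fold and 2.97-fold, and DCP1B, of mRNA decapping, had 4.04-fold over 3.76-fold. In the YTHDF1-knockdown list of 226 peaks, 5 lay on unmarked peaks and 103 on marked ones, where 0.381% of all RNF2 peaks under 10 kb held such a peak. Those 5, named after their values had been seen, were at FAM204A, at ETFRF1 and DNAI7, at ZSWIM2, at ZBBX and in LOC440982, 18.9 kb from ZIC1. None of the 5 carried a wild-type YTHDF1 peak.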

How the data were processed

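Peak lists of wild-type RNF2, H2AK119ub and YTHDF1 and of knockdown YTHDF1 were analysed, each merged by the authors from 2 replicates, per the series' design text. The submitters' processing notes name hg38, the peak callers SICER 1.1 and MACS2 2.1.0, the aligner Bowtie2 2.2.5, and Trimmomatic 0.35, Picard and SAMtools 1.3.1, with no settings. The deposited narrow-peak columns give a fold enrichment, the −log10 of a p-value and the −log10 of a q-value per peak. Their deposited score was found to be the −log10 p times 10, rounded down, with 1000 as its ceiling, and strength was read from the −log10 p. The deposited H2AK119ub score has no stated scale, and its islands are multiples of 200 bp whose ends name the last base, so 1 was added. How peaks were called per list, and read depth, are not given in the sources used here.

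Overlaps (at least 1 bp), midpoints and gaps were computed with Python 3.11.15, pandas 2.3.3 and SciPy 1.17.1, and the routines were tested on simulated data. Unmarked and marked peaks under 10 kb were compared with Fisher's exact test (two-sided), Woolf intervals and Mantel-Haenszel strata, adjusted by Benjamini-Hochberg over 4 tests. Coding genes (20037) and promoters (22199 windows, for 15843 genes) came from RefSeq tables. All 528 entries of the 11 gene lists matched by symbol or synonym. The values of 1 listed gene are not reported here. Members, lists and tests were chosen with earlier results of these data known. Strength was the −log10 p. Named were the 15 coding genes with the strongest member, the 4 strongest per list, the 5 strongest far from genes (over 10 kb), inside coding genes and with the strongest YTHDF1, the 5 widest, and 3 on each side of the overlap rule. Promoter stretches, 1 Mb windows, the chromosome 9 stretch, the 10 strongest members and knockdown sites were picked after values had been seen.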

Additional observations from a re-analysis of the deposited data

How the results depend on the processing

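Depth per library was unknown. The number of unmarked peaks, 4362, stayed within 1.5 times under 7 alternatives, from 3603 (peaks within 1 kb merged) to 4915 (midpoint outside every island). It was 2830 when no island was allowed within 5 kb, 7578 with the better-scoring 50% of islands, and 573 with the better-scoring 50% of RNF2 peaks. Chosen after seeing the data, RNF2 peaks of 4-fold or more gave 414 and those with a −log10 q of at least 5 gave 2189. Apart from the first, these use fewer islands or fewer peaks by construction. The odds ratio for YTHDF1 stayed below 1 with its interval in all 12 alternatives (0.160 to 0.482), as did that for gene starts in all 11 (0.165 to 0.319). Of 48 recounts of the gene lists, 45 stayed within 1.5 times. A window of 500 bp left 1 of 2 developmental transcription factor genes, and one of 5 kb gave 1 in place of 0 for both lists of PRC1 subunit genes. The 2 recounts of ETS forms stayed within the interval. No paired analysis was possible because the replicates were merged into 1 list per antibody, and no replicate could be left out.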

Other observations

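Unmarked RNF2 peaks were a larger part of the RNF2 peaks under 10 kb on gene-poor chromosomes. The share was 26.3% on chromosome 4 (23.7 to 29.0%), 25.2% on chromosome 18 and 22.7% on chromosome X, and 2.61% on chromosome 19 (1.93 to 3.45%), 4.05% on chromosome 22 and 5.61% on chromosome 16. Chromosome 19 has 24.8 coding genes per Mb and chromosome 4 has 4.05. Chromosome X has 5.43, close to chromosome 3, which has 5.38 and a share of 17.1%. Across 23 chromosomes, Y left out, Spearman's rho between the share and coding genes per Mb was -0.85, as a description. Transfer RNA genes were overlapped by 12 unmarked peaks (0.275%, 0.142 to 0.480%) and 0.512% of marked ones (0.426 to 0.610%), and these intervals overlapped. MicroRNA genes were overlapped by 6 (0.138%, 0.0505 to 0.299%) and 0.677% (0.577 to 0.788%). Pseudogenes were overlapped by 1.70% of unmarked and 1.38% of marked peaks, and their intervals overlapped (1.33 to 2.13% and 1.24 to 1.53%). For these 3 kinds of gene any overlap with the peak was counted, and shares were not matched on width. The median width was 639 bp for unmarked and 1472 bp for marked peaks, so a marked peak had more sequence in which to meet a gene.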
